A study of Mus musculus with 6 samples.

Results

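The nuclear-encoded subunit genes of respiratory complex III, complex IV and ATP synthase were examined in prefrontal cortex of Gls1_CamkIIaCre and control mice. The members are the rows of the count table whose symbols begin with Uqcr, with Cox followed by a digit from 4 to 8, or with Atp5. This gave 43 of 21878 genes, of which 8 belong to complex III, 18 to complex IV and 17 to ATP synthase, and none was a pseudogene. Of these, 40 had enough counts to be tested, and 14440 genes were tested in all. The symbol rule also took in Atp5s and Atp5sl, which RefSeq now names Dmac2l and Dmac2 and which are not structural subunits, and Cox7a2l, a factor that joins complexes III and IV. It left out some nuclear-encoded subunits, among them Cyc1 of complex III and Usmg5 and 2010107E04Rik of ATP synthase. These are given below as partners and are not in the sums.

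The data are bulk RNA sequencing of whole prefrontal cortex, labelled as holding all cell types, with 3 Gls1_CamkIIaCre animals set against 3 controls. Gls1_CamkIIaCre mice carry CamKIIα-Cre and a single floxed Gls1 allele beside a wild-type allele (CamKIIαCre;Gls1+/flox). Gls1 encodes glutaminase, the mitochondrial enzyme that turns glutamine into glutamate. Control mice are littermates with CamKIIα-Cre and no floxed allele (CamKIIαCre;Gls1+/+), per the series design, by which all 6 animals carry Cre. The sample labels give the controls only as WT, and the sources used here do not settle this difference. The CamKIIα promoter drives Cre mainly in excitatory forebrain neurons, and the series describes the mutants as mosaic. The deletion is therefore heterozygous and present in part of the cells sampled. Mosaic homozygous mutants did not survive. Age and sex are not given in the labels. The labels call the samples separate mice. Total counts were 18644314, 17987807 and 19265382 in the Gls1_CamkIIaCre libraries and 19330961, 18997592 and 18665024 in the control libraries.

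Complex III passes electrons from ubiquinol to cytochrome c, complex IV passes them from cytochrome c to oxygen, and both move protons across the inner mitochondrial membrane. ATP synthase lets the protons return through a rotating ring of c subunits, and the turning central stalk drives ATP formation in the F1 head. Each complex joins catalytic or core proteins to many short accessory subunits, and the central subunits of complex IV, cytochrome b of complex III and the a subunit of ATP synthase are encoded in mitochondrial DNA. The table held 0 rows of mitochondrially encoded genes, so only the nuclear share of each complex was measured. Neurons draw most of their ATP from this pathway.

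Of the 40 tested members, 12 passed an adjusted p under 0.05 by edgeR's quasi-likelihood test, and all 12 were lower in Gls1_CamkIIaCre cortex. None was higher. Among all 14440 tested genes, 8.24% passed in either direction, 4.29% as lower and 3.95% as higher, and 30% of members passed as lower. The 12 were 7 subunits of complex IV (Cox5a, Cox6a1, Cox6b1, Cox6c, Cox7a2, Cox7b and Cox8a), 4 of ATP synthase (Atp5d, Atp5g3, Atp5j2 and Atp5l) and 1 of complex III (Uqcrq). Their levels fell by between 8.81% and 20.3%. DESeq2 called 5 of them, and limma voom called all 12, with 0 members higher by either. Without control replicate 1, or without Gls1_CamkIIaCre replicate 2, 2 members passed, Atp5j2 and Atp5l. With an offset for the length and GC content of transcripts, fitted to these same data, only Atp5j2 passed. Both members that passed without those libraries belong to the membrane part of ATP synthase.

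The sequences just upstream of 5 members are shown because they carry both ends of the pattern. Atp5j2 and Atp5l had the lowest adjusted p, and Cox6a1 and Cox6b1 are called complex IV subunits that hold motif matches. Atp5b did not pass. These 5 were picked after the values were seen, so they do not show how matches divide between called and other members. Each is the 250 bases before the annotated start, from RefSeq on GRCm38.p6, written 5′ to 3′ on the strand of the gene. Capitals mark matches to NRF1 (GCGCA, any base, then GCGC), ETS (CCGGAAG) or YY1 (AAGATGGCG) motifs on either strand, named for factors known to act on nuclear respiratory genes.
Atp5j2 (chr5:145191542-145191791, minus strand): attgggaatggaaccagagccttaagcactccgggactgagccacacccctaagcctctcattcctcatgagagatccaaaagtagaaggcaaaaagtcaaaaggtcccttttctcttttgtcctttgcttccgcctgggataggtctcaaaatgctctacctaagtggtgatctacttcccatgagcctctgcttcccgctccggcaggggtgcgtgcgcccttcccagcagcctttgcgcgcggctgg
Atp5l (chr9:44920743-44920992, minus strand): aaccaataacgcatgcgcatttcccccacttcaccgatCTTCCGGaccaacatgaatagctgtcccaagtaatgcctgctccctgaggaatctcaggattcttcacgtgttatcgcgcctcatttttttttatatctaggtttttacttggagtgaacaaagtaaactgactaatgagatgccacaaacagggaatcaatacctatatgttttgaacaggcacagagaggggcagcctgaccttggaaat
Cox6a1 (chr5:115348959-115349208, minus strand): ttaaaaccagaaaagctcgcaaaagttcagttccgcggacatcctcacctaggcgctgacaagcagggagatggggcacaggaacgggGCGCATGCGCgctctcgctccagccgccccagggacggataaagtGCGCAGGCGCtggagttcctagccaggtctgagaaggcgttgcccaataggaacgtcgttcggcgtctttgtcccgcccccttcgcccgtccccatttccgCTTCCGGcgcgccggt
Cox6b1 (chr7:30626115-30626364, minus strand): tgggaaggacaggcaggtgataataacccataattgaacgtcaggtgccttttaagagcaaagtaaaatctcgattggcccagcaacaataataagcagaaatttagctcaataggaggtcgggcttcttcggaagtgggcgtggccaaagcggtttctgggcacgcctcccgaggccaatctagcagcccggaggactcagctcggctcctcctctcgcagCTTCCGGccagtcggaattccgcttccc
Atp5b (chr10:128083057-128083306, plus strand): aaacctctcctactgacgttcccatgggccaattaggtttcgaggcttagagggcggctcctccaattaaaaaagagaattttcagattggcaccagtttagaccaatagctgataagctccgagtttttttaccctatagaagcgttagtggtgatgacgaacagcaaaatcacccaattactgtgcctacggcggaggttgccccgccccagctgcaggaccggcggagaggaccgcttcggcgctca

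A promoter entry was found for 32 tested members and for 11429 tested genes, and motifs were counted once per gene over the 250 upstream bases, overlaps allowed. The NRF1 motif was found in 5 members (15.6%), against 8.50% of all genes. The ETS motif was found in 8 members (25.0%), against 14.1%, and the YY1 motif in 2 (6.25%), against 1.23%. The SP1 motif GGGCGGG, left in lower case above, was found in 8 members (25.0%), against 47.1%. Among the 10 called members with an entry, 1 held the NRF1 motif, 3 the ETS motif, 0 the YY1 motif and 1 the SP1 motif. Members that were not called held matches too, among them Uqcrh and Uqcr11 (ETS) and Atp5c1 (NRF1). The matches are descriptions of these letters in these windows.

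Of the 8 complex III genes, 1 passed as lower. These 8 genes, without cytochrome c1 (Cyc1), summed to 896, 882 and 872 CPM in Gls1_CamkIIaCre libraries, against 934, 933 and 919 CPM in control libraries. CPM are counts scaled to library size with TMM factors. Every Gls1_CamkIIaCre sum lay below every control sum, and the mean changed by -4.88%, a value with no test. Pairs of numbers in parentheses give the log2 fold change with its SE, then the edgeR adjusted p. The 2 core proteins and the Rieske protein did not pass with edgeR, DESeq2 or voom, nor at an unadjusted p under 0.05. Uqcrc1, a core protein, had 186, 184 and 182 CPM in Gls1_CamkIIaCre libraries and 177, 183 and 179 CPM in control libraries, and was the highest member of the complex by fold change (log2 fold change 0.03 ± 0.04 SE, edgeR adjusted p = 0.664). Its partner Uqcrc2 gave -0.04 ± 0.04 (adjusted p = 0.662), and Uqcrfs1, the Rieske iron-sulfur protein that takes electrons from ubiquinol, gave -0.05 ± 0.04 (adjusted p = 0.581).

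The 5 small subunits of complex III all had fold changes below 0 (median -0.16 on the log2 scale), and of these 1 passed. Uqcrq, a small subunit that sits next to cytochrome b, had 78.2, 78.6 and 74.2 CPM in Gls1_CamkIIaCre libraries, against 90.3, 82.6 and 85.9 CPM in control libraries. The groups did not overlap, and Uqcrq fell by 10.8% (log2 fold change -0.16 ± 0.05 SE, adjusted p = 0.0417). Uqcr11, the most negative member of the complex, had 47.2, 53.3 and 53.7 CPM in Gls1_CamkIIaCre libraries and 58.7, 59.4 and 56.0 CPM in control libraries. These ranges were also apart, yet Uqcr11 missed the threshold (log2 fold change -0.18 ± 0.06, adjusted p = 0.0664), as did Uqcr10 (-0.17 ± 0.06, 0.0652), Uqcrh (-0.13 ± 0.04, 0.0615) and Uqcrb (-0.10 ± 0.05, 0.276). Uqcrh, the hinge protein that contacts cytochrome c1, had the highest level in the complex per unit of length, at 183 ± 4.96 FPKM in Gls1_CamkIIaCre and 200.4 ± 3.84 FPKM in control (SD, n = 3 each).

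Complex IV held most of the calls. Its 18 genes summed to 1776, 1725 and 1771 CPM in Gls1_CamkIIaCre libraries, against 1992, 1906 and 1883 CPM in control libraries, with no overlap and a change in the mean of -8.78%. Of the 10 main structural subunits, 7 passed as lower, and their median was -0.16 on the log2 scale. These subunits surround the mitochondrially encoded catalytic core and bear on its assembly and regulation.

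Cox5a, a subunit on the matrix side, had the largest fall of the called complex IV genes. It had 97.7, 90.1 and 91.1 CPM in Gls1_CamkIIaCre libraries, against 113, 100.4 and 103 CPM in control libraries, a fall by 11.9% (log2 fold change -0.18 ± 0.05 SE, adjusted p = 0.0301). The groups were apart, with control replicate 1 well above the other two controls. Cox6a1, the form of subunit 6a used outside muscle, had 158, 163 and 165 CPM in Gls1_CamkIIaCre libraries and 189, 172 and 184 CPM in control libraries. It had the lowest adjusted p in the complex (log2 fold change -0.16 ± 0.04, adjusted p = 0.0239).

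Cox6c, a single-span membrane subunit, had 188, 175 and 179.7 CPM in Gls1_CamkIIaCre libraries, against 208, 207 and 192 CPM in control libraries (log2 fold change -0.16 ± 0.04, adjusted p = 0.0276). Cox8a, another membrane subunit, had 227, 208 and 226 CPM in Gls1_CamkIIaCre libraries and 254, 238 and 243 CPM in control libraries (-0.16 ± 0.04, 0.0290). Cox7b had 111, 105 and 109.9 CPM in Gls1_CamkIIaCre libraries and 123, 122 and 119 CPM in control libraries (-0.16 ± 0.04, 0.0301). In all 3 genes every control library lay above every Gls1_CamkIIaCre library, most narrowly in Cox6c. Cox7a2, the form of subunit 7a found in most tissues, had 95.9, 87.0 and 94.0 CPM in Gls1_CamkIIaCre libraries and 108, 103 and 99.2 CPM in control libraries (-0.16 ± 0.05, 0.0439). Cox6b1, which faces the intermembrane space, had 172, 166 and 166 CPM in Gls1_CamkIIaCre libraries and 189.5, 180.1 and 183 CPM in control libraries (-0.13 ± 0.04, 0.0443). The last 2 lay close to the threshold, and DESeq2 did not call them, nor Cox5a or Cox7b. By level per unit of length, Cox8a and Cox6c were the highest members of all, with Cox8a at 730.0 ± 37.4 FPKM in Gls1_CamkIIaCre and 840.2 ± 8.17 FPKM in control. Cox6c stood at 497 ± 17.9 FPKM in Gls1_CamkIIaCre and 563 ± 22.5 FPKM in control (SD, n = 3 each).

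The other 3 structural subunits did not pass. Cox4i1, the largest nuclear-encoded subunit, had 369.8, 375 and 394 CPM in Gls1_CamkIIaCre libraries and 407, 400.5 and 393 CPM in control libraries. These ranges overlapped (log2 fold change -0.08 ± 0.04, adjusted p = 0.253). Cox5b gave -0.13 ± 0.05 (0.0925) and Cox7c -0.11 ± 0.05 (0.187), both without overlap between groups. Cox7a2l gave -0.13 ± 0.04 (0.0750), also without overlap.

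**Figure D1:**
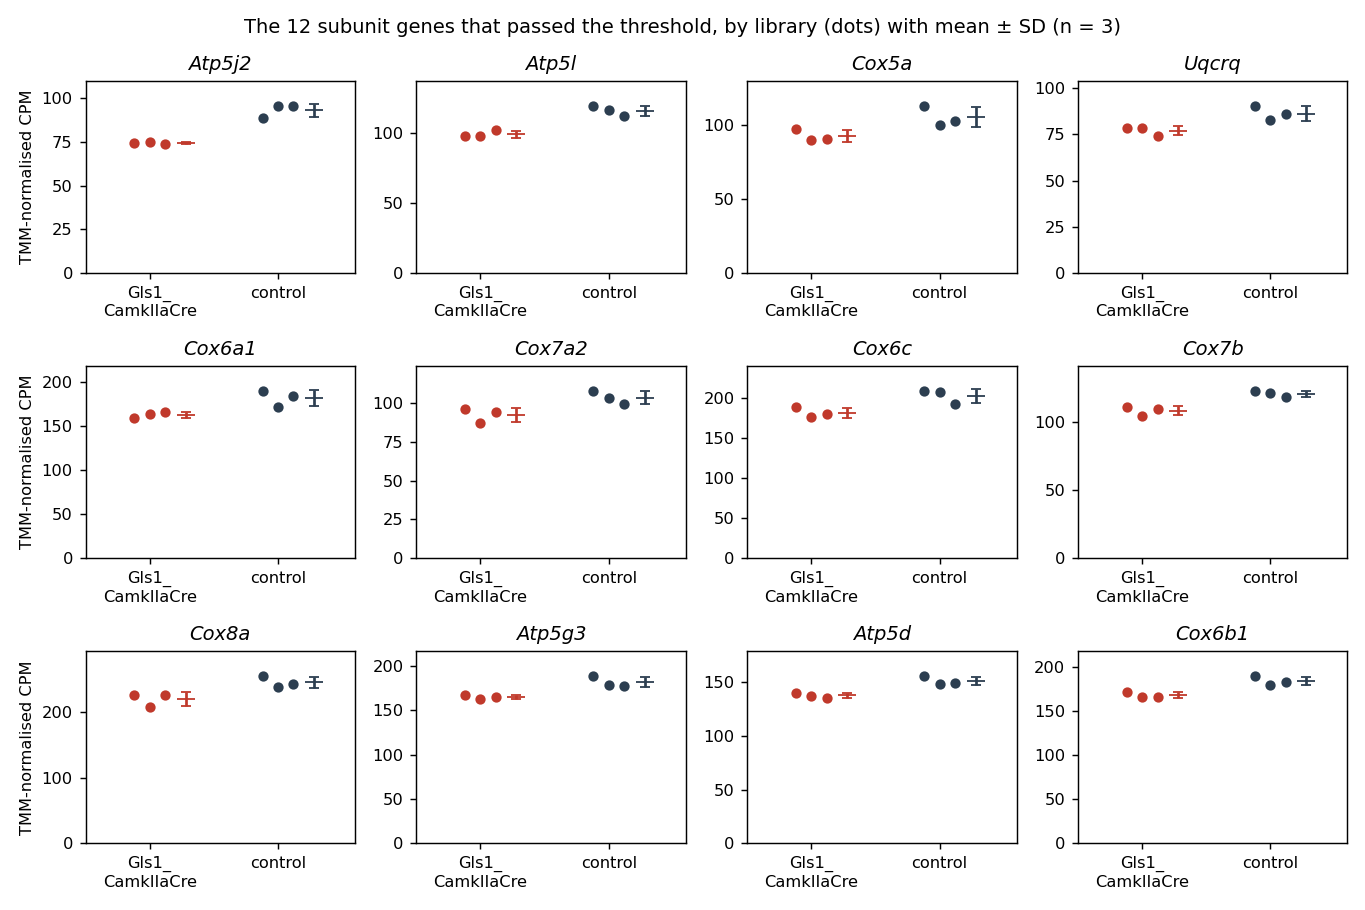
TMM-normalised CPM (y axis, from 0) of the 12 genes that passed, with Gls1_CamkIIaCre left of control; dots are the 3 libraries of each group and the bar beside them is the mean ± SD. In every panel all Gls1_CamkIIaCre dots lie below all control dots, most widely in Atp5j2 with 73.6 to 74.6 CPM against 88.8 to 95.3 CPM.

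Several complex IV subunits have a second gene whose product is known from muscle, testis or lung, and these were scarce in cortex. Cox4i2, the alternative to Cox4i1, had 1.45, 0.891 and 0.844 CPM in Gls1_CamkIIaCre libraries and 1.17, 1.73 and 0.915 CPM in control libraries, and made up 0.0780% of the FPKM of the pair in Gls1_CamkIIaCre and 0.0935% in control. Cox6a2, the heart and muscle form, had 2.73, 3.40 and 4.22 CPM in Gls1_CamkIIaCre libraries against 3.16, 3.46 and 2.10 CPM in control libraries, and was the only gene of the 15 tested in complex IV with a fold change above 0 (log2 fold change 0.24 ± 0.22, adjusted p = 0.572). Its share of the Cox6a FPKM was 1.61 ± 0.308% in Gls1_CamkIIaCre and 1.13 ± 0.453% in control. The groups overlapped for both genes.

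Cox6b2, known from testis, had 1.18, 1.06 and 1.16 CPM in Gls1_CamkIIaCre libraries, against 1.63, 1.52 and 2.04 CPM in control libraries. The groups were apart, but the difference did not pass (log2 fold change -0.61 ± 0.29, adjusted p = 0.212). Cox7a1, the muscle form of subunit 7a, had 0.910, 0.501 and 0.738 CPM in Gls1_CamkIIaCre libraries and 1.28, 1.36 and 0.861 CPM in control libraries, overlapping between groups (-0.70 ± 0.36, 0.269). It was the most negative member of all and also among the least certain. Cox7b2 had 10, 7 and 2 counts in Gls1_CamkIIaCre libraries and 6, 6 and 6 in control libraries. Cox8b had 0, 1 and 2 counts in Gls1_CamkIIaCre libraries and 2, 0 and 2 in control libraries. Cox8c had 0 counts in all 6 libraries. These 3 genes were too low to test. Markers of skeletal and heart muscle were also low: their 6 genes summed to 33.7 to 35.4 CPM in Gls1_CamkIIaCre and 39.6 to 40.9 CPM in control, with Myh6, Ckm and Myl2 under 1 CPM throughout. Of the 3 muscle markers tested, 1 passed as lower, Actn2 (log2 fold change -0.39, edgeR adjusted p = 0.0104).

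Of the 17 ATP synthase genes, 4 passed as lower, and differences between parts of the enzyme were not tested. The 17 genes summed to 3401, 3372 and 3369 CPM in Gls1_CamkIIaCre libraries, against 3539, 3526 and 3499 CPM in control libraries, without overlap and with a ratio of the means of 0.960. In the head, 0 of 2 genes passed with edgeR, DESeq2 or voom, or at an unadjusted p under 0.05. Atp5b, the catalytic β subunit, had 1001, 1011 and 1009 CPM in Gls1_CamkIIaCre libraries and 997, 1013 and 1013 CPM in control libraries (log2 fold change 0.00 ± 0.04, adjusted p = 0.990). Atp5a1, the α subunit, had 838, 842 and 830.4 CPM in Gls1_CamkIIaCre libraries and 799, 822 and 831 CPM in control libraries (0.03 ± 0.04, 0.655). The groups overlapped in CPM for both genes. Atp5b had the highest level of the ATP synthase genes per unit of length, at 444 ± 2.75 FPKM in Gls1_CamkIIaCre and 454 ± 2.34 FPKM in control. In FPKM its groups did not overlap, with Gls1_CamkIIaCre lower.

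The membrane part held the largest differences of the 40 members outside the scarce isoforms. Atp5j2, the f subunit (chr5:145183704-145191541), had 74.3, 74.6 and 73.6 CPM in Gls1_CamkIIaCre libraries, against 88.8, 95.3 and 95.1 CPM in control libraries. The 3 Gls1_CamkIIaCre libraries lay close together and far below the lowest control. Atp5j2 fell by 20.3% (log2 fold change -0.33 ± 0.05 SE, adjusted p = 0.000368), and it passed in all 18 alternative analyses that gave a p, with adjusted p between 4.513e-06 and 0.0108. Atp5l, the g subunit (chr9:44913248-44920742), had 97.7, 97.3 and 102 CPM in Gls1_CamkIIaCre libraries, against 119, 116 and 112 CPM in control libraries. It fell by 14.5% (-0.23 ± 0.04, 0.00348), and it did not pass with the length and GC offset (adjusted p = 0.2795). Atp5k, the e subunit of the same region, overlapped between groups (-0.13 ± 0.06, 0.180).

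The c ring is encoded by 3 genes, Atp5g1, Atp5g2 and Atp5g3, whose mature proteins are the same and whose coding sequences differ. Reads from them can be told apart only where the bases differ. The end of each coding sequence is shown to make this visible, with capitals at the 20 of 75 positions where the 3 genes are not all alike (sequences from GENCODE transcripts).
Atp5g1 (chromosome 11): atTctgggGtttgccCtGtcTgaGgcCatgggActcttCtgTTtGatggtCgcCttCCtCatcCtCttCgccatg
Atp5g2 (chromosome 15): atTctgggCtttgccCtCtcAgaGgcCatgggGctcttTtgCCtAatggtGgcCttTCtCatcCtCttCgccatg
Atp5g3 (chromosome 2): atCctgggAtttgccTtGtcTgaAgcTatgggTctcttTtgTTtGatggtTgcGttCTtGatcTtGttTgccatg
Over the last 225 coding bases, Atp5g1 and Atp5g2 shared 84.9% of bases with a longest identical run of 20, Atp5g1 and Atp5g3 shared 80.0% with a run of 11, and Atp5g2 and Atp5g3 shared 78.7% with a run of 8. How multiply mapping reads were counted is not given in the sources used here.

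Of these, Atp5g3 passed. It had 167, 162 and 165 CPM in Gls1_CamkIIaCre libraries, against 188, 178 and 178 CPM in control libraries (log2 fold change -0.14 ± 0.04 SE, adjusted p = 0.0378). Atp5g1 stood at 65.8, 61.2 and 59.4 CPM in Gls1_CamkIIaCre libraries and 69.7, 68.2 and 69.9 CPM in control libraries (-0.16 ± 0.05, 0.0649). Atp5g2 had 54.5, 56.0 and 47.2 CPM in Gls1_CamkIIaCre libraries and 58.7, 60.5 and 55.5 CPM in control libraries, which overlapped (-0.15 ± 0.06, 0.153). The shares of the 3 genes overlapped between groups, with Atp5g3 at 57.1 ± 1.42% of their FPKM in Gls1_CamkIIaCre and 56.1 ± 0.346% in control, and Atp5g1 at 15.3 ± 0.611% in Gls1_CamkIIaCre and 15.8 ± 0.766% in control (SD, n = 3 each). Atp5g2 made up the rest, at 27.6 ± 1.98% in Gls1_CamkIIaCre and 28.0 ± 1.01% in control.

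In the central stalk, Atp5d, the δ subunit, passed. It had 139.7, 137 and 136 CPM in Gls1_CamkIIaCre libraries, against 155, 149 and 149 CPM in control libraries (log2 fold change -0.14 ± 0.04 SE, adjusted p = 0.0446). Atp5c1, the γ subunit that turns inside the head, gave -0.13 ± 0.04 (0.0582), and Atp5e, the ε subunit, gave -0.15 ± 0.06 (0.121). Neither overlapped between groups. The peripheral stalk, which holds the head still, had 0 of 4 genes past the threshold by edgeR, DESeq2 or voom, and 4 at an unadjusted p under 0.05. Its median lay at -0.12 on the log2 scale. Its members were Atp5h (-0.14, adjusted p = 0.0646), Atp5j (-0.13, 0.0984), Atp5o (-0.11, 0.145) and Atp5f1 (-0.10, 0.0948). Atp5s and Atp5sl lay at -0.01 and -0.02.

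**Figure D2:**
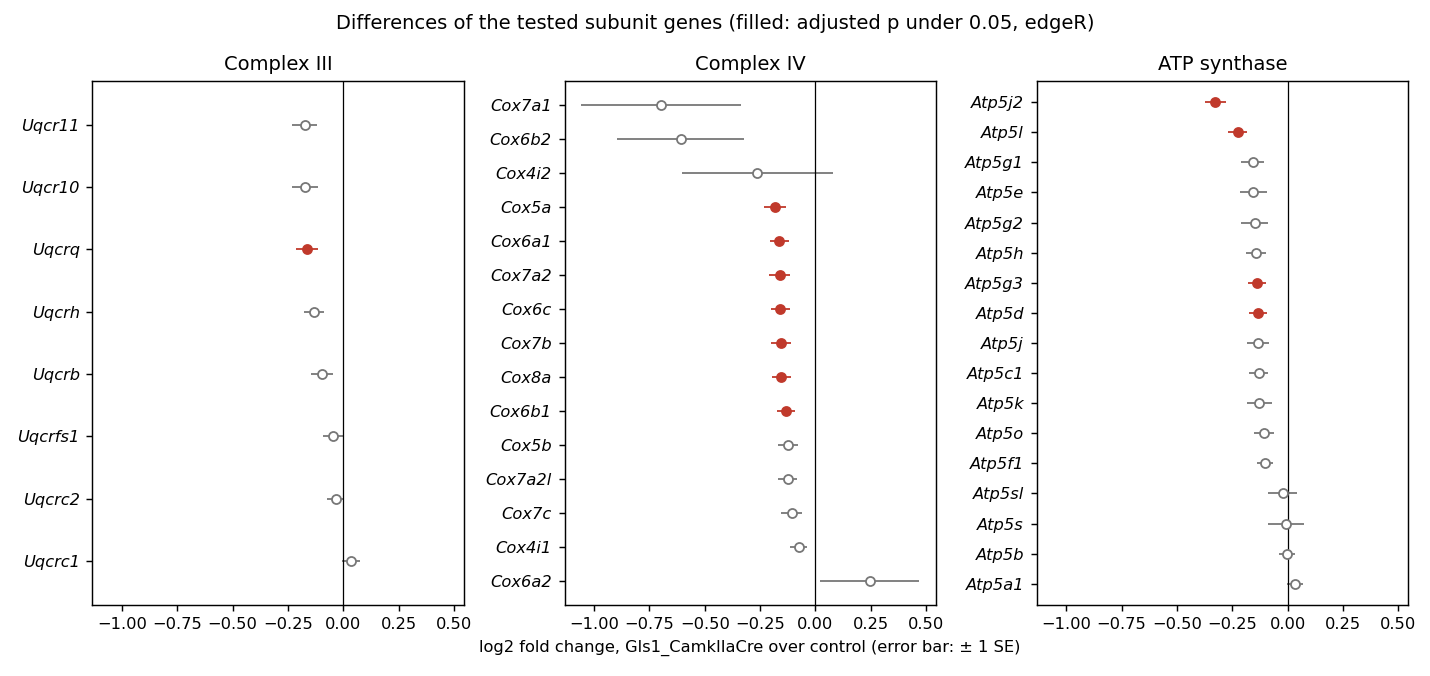
Log2 fold change of Gls1_CamkIIaCre over control (x axis, error bars ± 1 SE) for the 40 tested genes in 3 panels, ordered from lowest to highest; filled points passed an adjusted p under 0.05. Most genes sit between -0.10 and -0.18, Atp5j2 at -0.33 is the lowest that passed, and Atp5b, Atp5a1 and Uqcrc1 sit near 0.

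Over all tested members, 37 of 40 had a fold change below 0 (50.8% of all genes did), and the median log2 fold change was -0.13 against 0.00 over all genes. In 24 members the groups did not overlap with Gls1_CamkIIaCre lower, and in 0 with it higher. Of all genes, 13.6% did not overlap in the lower direction. At an unadjusted p under 0.05 there were 28 members, against 22.4% of all genes. The members took up 0.599% of counts in Gls1_CamkIIaCre and 0.641% in control, and their summed CPM changed by -5.57%. The same sums in FPKM changed by -9.93%, and FPKM sums over all genes were also lower in Gls1_CamkIIaCre, at 238924 to 243144 against 249602 to 252272.

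The members did not move evenly across libraries. Relative to each gene's mean over the 6 libraries, the median member lay at -0.03, -0.07 and -0.07 on the log2 scale in the Gls1_CamkIIaCre libraries and at 0.11, 0.05 and 0.02 in the control libraries. Control replicate 1 held the highest value for 25 of the 40 members.

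**Figure D3:**
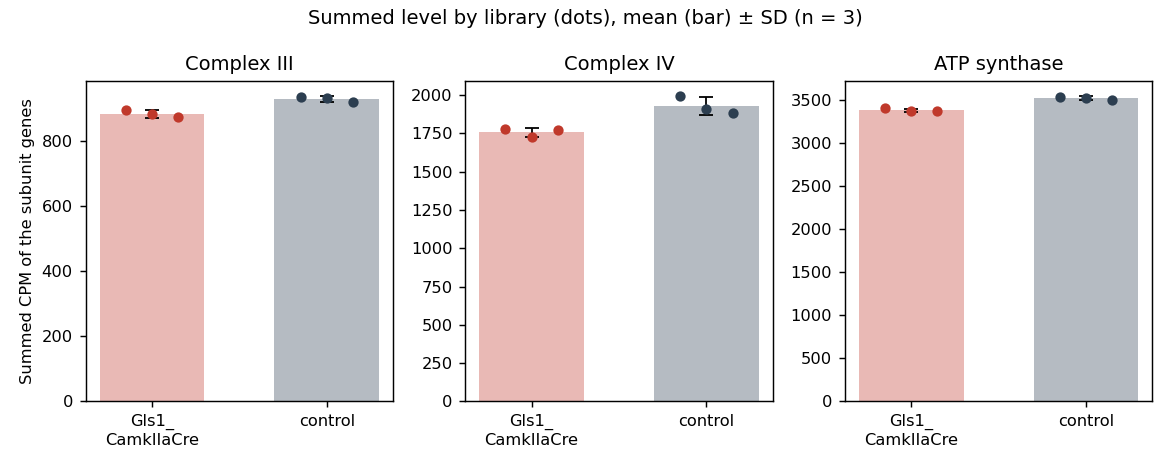
Summed CPM of the members of each complex (y axis, from 0) with Gls1_CamkIIaCre left of control; bars are means, error bars SD and dots the 3 libraries. The gap is widest in complex IV, where Gls1_CamkIIaCre libraries lie between 1725 and 1776 CPM and control libraries between 1883 and 1992 CPM.

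Partners and builders of the complexes were examined as lists of genes outside the symbol rule. Of 53 tested, 7 were lower and 0 higher, or 13.2% against 4.29% of all genes. Among 6 partners, 3 passed: 2010107E04Rik, which RefSeq names Atp5mpl and which is a small ATP synthase proteolipid, with 46.6, 46.9 and 45.3 CPM in Gls1_CamkIIaCre libraries and 57.4, 54.1 and 49.9 CPM in control libraries (-0.22 ± 0.06, adjusted p = 0.0248), Usmg5, a further membrane subunit of ATP synthase (-0.20 ± 0.05, 0.0196), and Atpif1, the inhibitor of ATP hydrolysis by the enzyme (-0.16 ± 0.05, 0.0315). Ndufa4, now placed in complex IV, gave -0.10 (0.174), cytochrome c1 (Cyc1) -0.08 (0.299) and cytochrome c (Cycs) -0.10 (0.263).

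Among 6 assembly factors of complex III, Uqcc2, needed for the making of cytochrome b, passed with 40.5, 45.7 and 39.6 CPM in Gls1_CamkIIaCre libraries, against 55.9, 53.4 and 48.8 CPM in control libraries (log2 fold change -0.33 ± 0.06, adjusted p = 0.00369). The groups did not overlap. Among 26 tested assembly factors of complex IV, 3 passed as lower: Cox14 (-0.31 ± 0.07, 0.00745), Coa5 (-0.18 ± 0.04, 0.0169) and Smim20 (-0.28 ± 0.08, 0.0459), while Surf1, Sco1, Cox10 and Cox15 did not. Of 4 ATP synthase assembly factors, 0 passed by edgeR, DESeq2 or voom, and 1 had an unadjusted p under 0.05. Of 11 regulators of nuclear and mitochondrial respiratory transcription, 0 passed, among them Ppargc1a (-0.09 ± 0.05, 0.343), Nrf1 (-0.06 ± 0.10, 0.770), Gabpa (-0.09 ± 0.06, 0.471) and Tfam (-0.13 ± 0.07, 0.263). DESeq2 and voom also called 0 regulators, and by edgeR 0 had an unadjusted p under 0.05.

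The same comparison was run over other gene sets. Complex I (Nduf symbols) and cytosolic ribosomal proteins (Rpl, Rps and Rplp symbols) were taken by symbol alone, without pseudogenes. These symbols also fit genes that are not subunits, such as complex I assembly factors and kinases of ribosomal proteins. They also fit Ndufa4, counted above as a partner. The complex I set had 12 of 45 genes lower and 0 higher (median -0.12 on the log2 scale). The cytosolic ribosomal set had 24 of 94 genes lower and 0 higher (median -0.12). With DESeq2 these counts were 8 for complex I and 18 for the cytosolic ribosomal proteins, and with the length and GC offset 3 and 0. Mitochondrial ribosomal protein genes had 0 of 77 called (median -0.09), with 14 at an unadjusted p under 0.05. Complex II had 0 of 4 called (median -0.07), with 1 at an unadjusted p under 0.05. DESeq2 and voom also called 0 in both. Differences between these sets were not tested.

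Members are short genes, and short genes as a class were lower. Median transcript length was 735.5 bases among tested members and 3102 among all tested genes. Of the 26 members under 1000 bases, 9 were called lower, and their median was -0.15 on the log2 scale. Of all 740 tested genes of that length, members included, 92 were called lower, with a median of -0.13. Of the 14 members of 1000 bases or more, 3 were called with a median of -0.08, against 526 of 13607 genes and a median of 0.00. Across length bins the median over all genes ran from -0.15 under 500 bases to 0.05 at 5000 bases or more. Between 500 and 750 bases, where 16 members lie, 8 members were called, and 21.1% of the 247 genes of that length were called lower. Across the 36 members at 10 CPM or more, log2 length and log2 fold change had a Pearson r of 0.50 and a Spearman rho of 0.49, as a description over genes that share libraries and are not independent replicates. With a length and GC offset, the member median was -0.02 and the all-gene median 0.02, and 1 of the 12 calls, Atp5j2, was kept. The offset was fitted in each library over the tested genes. It therefore removes any group difference that genes of like length and GC content share, whatever its cause. The length of Atp5g1 (4715 bases) is from its principal GENCODE transcript, which is longer than its RefSeq gene span.

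**Figure D4:**
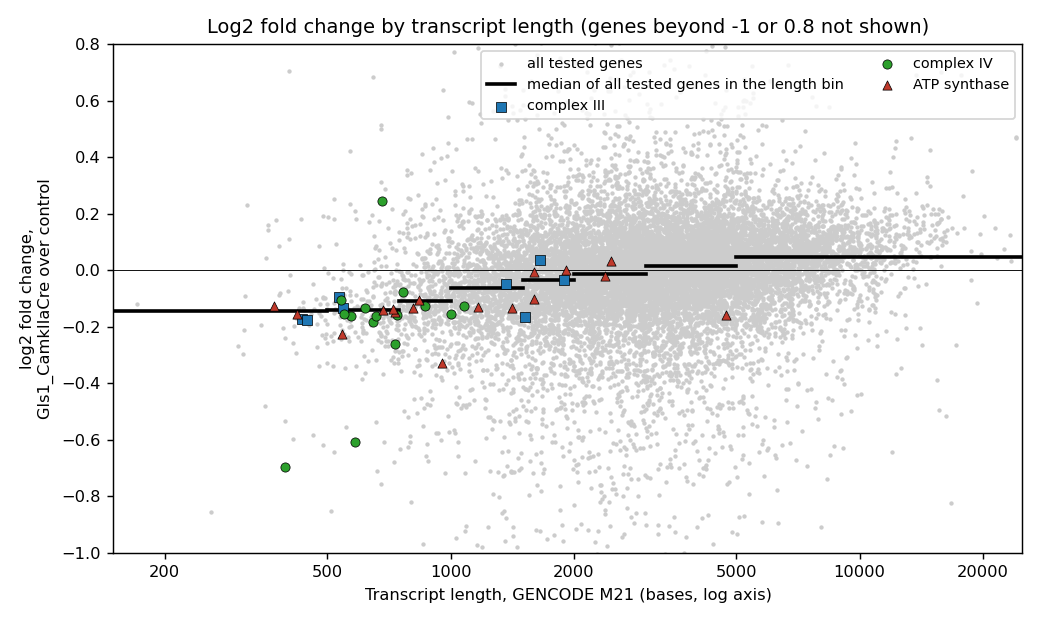
Log2 fold change (y axis) against transcript length in bases (x axis, log scale) for all tested genes (grey), with members coloured by complex and the median of all genes in each length bin as a black line. 167 genes outside the plotted range are not drawn. Under 1000 bases the medians of the members and of all genes both lie below 0, at -0.15 and -0.13, and Atp5j2 at 955 bases lies at -0.33.

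Cell type markers also moved. Fewer cells of a type in the tissue taken, whatever the reason, and less RNA per cell cannot be told apart in these bulk samples. Excitatory neuron markers summed to 6094 to 6818 CPM in Gls1_CamkIIaCre and 5990 to 6327 CPM in control, with 0 of 6 called by edgeR, 1 higher by DESeq2 and by voom, and 3 at an unadjusted p under 0.05. Astrocyte markers summed to 1811 to 1841 CPM in Gls1_CamkIIaCre and 1919 to 1950 CPM in control, with 3 of 6 lower by edgeR, 4 by DESeq2 and 3 by voom. Striatal neuron markers summed to 223 to 255 CPM in Gls1_CamkIIaCre and 584 to 994 CPM in control, with 8 of 10 lower by edgeR, 10 by DESeq2 and 4 by voom. Interneuron markers summed to 969 to 1160 CPM in Gls1_CamkIIaCre and 1146 to 1250 CPM in control, with 3 of 6 lower by edgeR, DESeq2 and voom. By edgeR these were Gad2, Slc32a1 and Sst, while Gad1, Pvalb and Vip were not called. Oligodendrocyte markers summed to 2944 to 3372 CPM in Gls1_CamkIIaCre and 3228 to 3825 CPM in control, with 3 of 6 lower by edgeR, 2 by DESeq2 and 1 by voom. A further 3 lists, and the muscle list given above, were lower in every Gls1_CamkIIaCre library than in any control. Microglial markers summed to 315 to 338 CPM in Gls1_CamkIIaCre and 339.9 to 381 CPM in control (2 of 6 lower by edgeR, DESeq2 and voom). Endothelial and mural markers summed to 186 to 203 CPM in Gls1_CamkIIaCre and 211 to 232 CPM in control (4 of 6 lower by edgeR, 3 by DESeq2 and voom). Blood markers summed to 58.0 to 75.6 CPM in Gls1_CamkIIaCre and 76.1 to 90.6 CPM in control (2 of 5 lower by edgeR, 1 by DESeq2 and voom). With the length and GC offset, 6 striatal, 3 endothelial and mural and 2 oligodendrocyte markers were lower. In that fit 1 astrocyte, 1 interneuron, 1 microglial and 0 blood markers were lower. Control replicate 1 held the highest value for most members. Among the controls it had the lowest striatal, excitatory neuron, oligodendrocyte and blood sums and the highest interneuron and microglial sums. The part of these markers in the differences of the members was not tested. Of the members, 8 overlap another protein-coding gene, among them the called Uqcrq (Gdf9), Cox7a2 (Tmem30a) and Atp5d (Cbarp). Mean CPM in Gls1_CamkIIaCre and control was 0.825 and 0.563 for Gdf9, 608 and 628 for Tmem30a, and 226 and 228 for Cbarp. The use of strand is not given in the sources used here, so the values of the 8 members are uncertain to that extent. The part of reads from these neighbours was not tested.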

How the data were processed

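Libraries were prepared with the SMARTER kit from total RNA, per the labels' protocols. The build was GRCm38 (mm10), as the submitters' processing notes say. Which aligner and counter were used, and whether strand was, is not given in the sources used here. Per the file headers, whole-number counts per gene and FPKM values were deposited for the same 21878 genes. FPKM was used for levels between genes and as an alternative input. The FPKM values did not follow from the counts by scaling alone. Pet117, for one, had 0 counts in all 6 libraries and 2.57 to 10.8 FPKM. Levels and shares in FPKM are uncertain to that extent. Symbols stored as dates (27) were restored from gene identifiers, and 21727 rows matched RefSeq. Counts were tested in edgeR 4.0.16 (R 4.3.3) with TMM factors, filterByExpr and a robust quasi-likelihood fit over 14440 genes, with Benjamini-Hochberg adjustment over all of them and a threshold of 0.05. The biological coefficient of variation was 4.75%, and replicate libraries were not duplicates of each other (chi-square per degree of freedom 2.27 to 4.16). The procedure was also run on simulated counts with known changes and the same dispersion for every gene, and the share recovered is not given here. Fold changes are Gls1_CamkIIaCre over control. The edgeR p-values set each difference against the spread between these mice, with the estimate of spread drawn in part from all tested genes. Transcript length and GC content came from the principal GENCODE M21 transcript, found for 99.4% of tested genes. Alternatives used DESeq2 1.42.0, limma 3.58.1, other scalings, filters and thresholds, a replicate block, a length and GC offset, and leaving out each library. Values in every library are given for each called member, for paralogues and for the highest and most extreme members of each complex, and outside lists name up to 4 called genes. The members and lists were chosen with earlier results of these data known. Many of these short genes have near-identical copies, so their counts depend on how shared reads were assigned. The level of the floxed gene's own transcript is not reported here.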

Additional observations from a re-analysis of the deposited data

How the results depend on the processing

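All 12 called members kept their sign in the 18 alternatives that gave a p, 1 (Atp5j2) passed in each, and no member was called higher in any; 14 members that were not called changed sign somewhere. Members called, 12 in the reported analysis, numbered 5 with DESeq2, 20 with upper-quartile factors, 2 at an adjusted p under 0.01, 22 under 0.1, 1 with the length and GC offset, and 2 to 13 when a library was left out. They numbered 2 without control replicate 1 or Gls1_CamkIIaCre replicate 2, 4 without control replicate 2, 5 without Gls1_CamkIIaCre replicate 3 and 8 without Gls1_CamkIIaCre replicate 1. A replicate block gave 20 members, and the block with the length and GC offset gave 2. Same-numbered libraries correlated at 0.139, -0.026 and 0.14 in their deviations, and not every library correlated best with its own number, so the numbers were not taken to pair the mice. All genes called, 1190 in the reported analysis, numbered 674 on log2(FPKM + 1), 729 on log2(FPKM + 0.1), 402 under 0.01, 1862 under 0.1, 1814 with the block and offset, and 415 to 1098 without a library. The split of 619 lower and 571 higher was 749 and 429 with upper-quartile factors, 558 and 116 on log2(FPKM + 1), 607 and 122 on log2(FPKM + 0.1), 371 and 528 with the offset, and 685 and 1129 with the block and offset. Outside-list calls, 7 in the reported analysis, numbered 4 with DESeq2, 2 under 0.01, 1 with the offset and 2 to 5 without a library. The member median of -0.13 was -0.0203 with the offset and -0.0205 with the block and offset, and lay between -0.15 and -0.11 without a library. Ratios of summed levels were 0.928 for complex III in FPKM (0.951 in CPM), and for ATP synthase 0.951 on raw totals and 0.907 in FPKM (0.960 in CPM). The cause of these shifts was not tested. The differences of the isoforms near 1 CPM did not pass, and the part of depth in this was not tested.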
